A study of Homo sapiens with 9 samples.

Results

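Chromatin accessibility after loss or inhibition of PRC2 was compared with that of unperturbed cells in 7 of the 9 ATAC-seq libraries of the series. ATAC-seq uses the Tn5 transposase to insert sequencing adapters into open DNA, so that a peak of insertions marks an accessible region. All libraries came from MDA-MB-231, a human triple-negative breast cancer (TNBC) cell line of mesenchymal, basal-like character. The 4 PRC2-perturbed libraries were 2 of cells transduced with a short hairpin RNA against EZH2 (shEZH2), 1 with a hairpin against SUZ12 (shSUZ12) and 1 of cells treated with GSK126, which blocks the methyltransferase activity of EZH2. The 3 unperturbed libraries were 2 of cells with a control hairpin (shCtrl) and 1 of cells given DMSO, the vehicle, whose treatment label reads WT. Hairpins were delivered by lentivirus for 24 h and cells were selected with 2 μg/ml puromycin for 72 h, so every shRNA library, controls included, was puromycin-selected. Per the study's methods, GSK126 was given for 72 h, and its dose for these libraries is not given in the sources used here. Each perturbation used 1 hairpin or compound in 1 cell line, and shSUZ12, GSK126 and DMSO had 1 library each. The remaining 2 libraries, of cells with a hairpin against E2F1 (shE2F1), took no part in choosing regions and are given as a comparison outside PRC2. Nothing in the labels says that replicates were separate cultures, so p-values measure only the spread between libraries.

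PRC2 is the complex that places trimethylation on lysine 27 of histone H3 (H3K27me3), a mark of silenced developmental genes. EZH2 is its catalytic subunit, SUZ12 and EED are needed for its activity, and RBBP4 and RBBP7 bind histones. GSK126 competes with the methyl donor in the active site and leaves the EZH2 protein in place, whereas a hairpin lowers the amount of the protein. Regions that respond alike to all of these perturbations would therefore be candidates for control by the enzymatic complex, and the comparison asks how many there were.

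The deposited lists held 72202 and 58626 peaks for shEZH2, 68756 for GSK126 and 73441 for shSUZ12, against 78600 and 81743 for shCtrl and 74657 for DMSO. Every perturbed list was thus shorter than every unperturbed one, with means of 68256 ± 6719 and 78333 ± 3551 (SD, n = 4 and 3, a difference of −10077). By the exact permutation test over the 35 ways of choosing 4 of the 7 libraries, a difference this large came up in 2 assignments (two-sided p = 0.0571, adjusted p = 0.143 over 5 list properties). The share of peaks within 1000 bp of the transcription start site (TSS) of a protein-coding gene was 19.2% and 22.4% with shEZH2, 19.6% with GSK126 and 18.9% with shSUZ12, and 18.0%, 17.1% and 18.1% with shCtrl and DMSO, again with no overlap (exact permutation p = 0.0571, adjusted p = 0.143). In lists cut to the same length, a comparison added after the data were seen, the promoter shares were 20.9% to 22.4% and 20.6% to 21.1% and overlapped (exact permutation p = 0.229). Depth, read as the most frequent number of background tags at a summit, was 1.95 and 1.41 with shEZH2, 1.46 with GSK126 and 2.11 with shSUZ12 against 1.79, 2.08 and 1.79, and did not separate the classes (exact permutation p = 0.457). The shortest list, of the second shEZH2 library, was also the shallowest of the 7. The smallest p that 4 libraries against 3 can give is 0.0286.

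Lists were cut to the 58626 peaks of lowest p each, so that none could gain or lose regions by its length. After the cut the weakest retained peak had a −log10 p of 4.03 in the second shEZH2 list, which was used whole, and of 10.2 to 13.3 in the other lists. Peaks of the 7 cut lists that shared at least 1 bp were merged into 80673 regions, with 38038 (47.2%) represented in all 7 lists and 13353 in a single one. A region is called gained where it had a peak in all 4 perturbed and in none of the 3 unperturbed lists, and lost in the reverse case. Strength within a list was expressed as the percentile of fold enrichment, the ratio of the summit to its local background, from 0 for the weakest peak to 100 for the strongest.

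Sequences of 2 gained and 2 lost regions among the highest ranked are given first, because the open DNA itself is what the lists record. For each, the 201 bases around the summit of the strongest peak are shown from the plus strand of hg38. Capitals mark matches to the motifs of AP-1 (TGANTCA), TEAD (GGAATG) or CTCF on either strand, and a region without capitals held none of them, nor TTTNNCGC for E2F or CCGGAAG for ETS factors.

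Gained, SMYD3 intron, chr1:245788281-245788481: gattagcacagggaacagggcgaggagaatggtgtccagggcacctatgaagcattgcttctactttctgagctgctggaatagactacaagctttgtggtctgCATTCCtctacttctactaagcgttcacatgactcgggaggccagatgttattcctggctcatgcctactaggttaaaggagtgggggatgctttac
Gained, intergenic, chr2:53058656-53058856: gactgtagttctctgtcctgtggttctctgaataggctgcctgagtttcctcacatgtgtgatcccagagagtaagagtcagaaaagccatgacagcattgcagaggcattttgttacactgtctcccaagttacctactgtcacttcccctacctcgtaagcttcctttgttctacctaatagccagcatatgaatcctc
Lost, lncRNA intron, chr16:74329426-74329626: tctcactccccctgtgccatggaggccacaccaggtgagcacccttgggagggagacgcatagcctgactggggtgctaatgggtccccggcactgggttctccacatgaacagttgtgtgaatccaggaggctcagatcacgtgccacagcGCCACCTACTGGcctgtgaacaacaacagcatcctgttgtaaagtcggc
Lost, intergenic, chr1:65090560-65090760: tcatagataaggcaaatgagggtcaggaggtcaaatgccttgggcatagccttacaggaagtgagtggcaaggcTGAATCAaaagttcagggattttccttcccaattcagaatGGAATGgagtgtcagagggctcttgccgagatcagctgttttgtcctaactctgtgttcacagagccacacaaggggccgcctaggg

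Few regions were gained or lost with all 3 perturbations. In lists of the same length, 114 regions were gained, 0.141% of all regions, and 263 were lost, 0.326%. Of the 35 assignments of 4 of the 7 libraries, 21 gave at least as many gained regions (exact permutation p = 0.6, adjusted p = 0.6) and the others ranged from 58 to 399 with a median of 123. For lost regions, 3 of the 35 gave at least as many (exact permutation p = 0.0857, adjusted p = 0.214), and the others ranged from 66 to 273 with a median of 138.5. The count of gained regions lay below the median of the other assignments, and that of lost regions lay above it without passing the threshold of 0.05. In the lists as deposited, where the perturbed lists are shorter, lost regions did pass, with 846 lost against 38 gained (exact permutation p = 0.0286 for lost regions), and likewise with a −log10 q of at least 5, with 766 lost against 35 gained (exact permutation p = 0.0286). Cutting by fold enrichment in place of p also brought lost regions past it, with 311 lost and 168 gained (exact permutation p = 0.0286). These 3 p-values are unadjusted and treat replicates of 1 hairpin as separate libraries. With replicates kept together, 7 assignments remained and the smallest possible p was 0.143, so no count could pass 0.05. In the main setting that exact permutation test gave p = 0.286 for lost and 0.857 for gained regions.

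**Figure D1:**
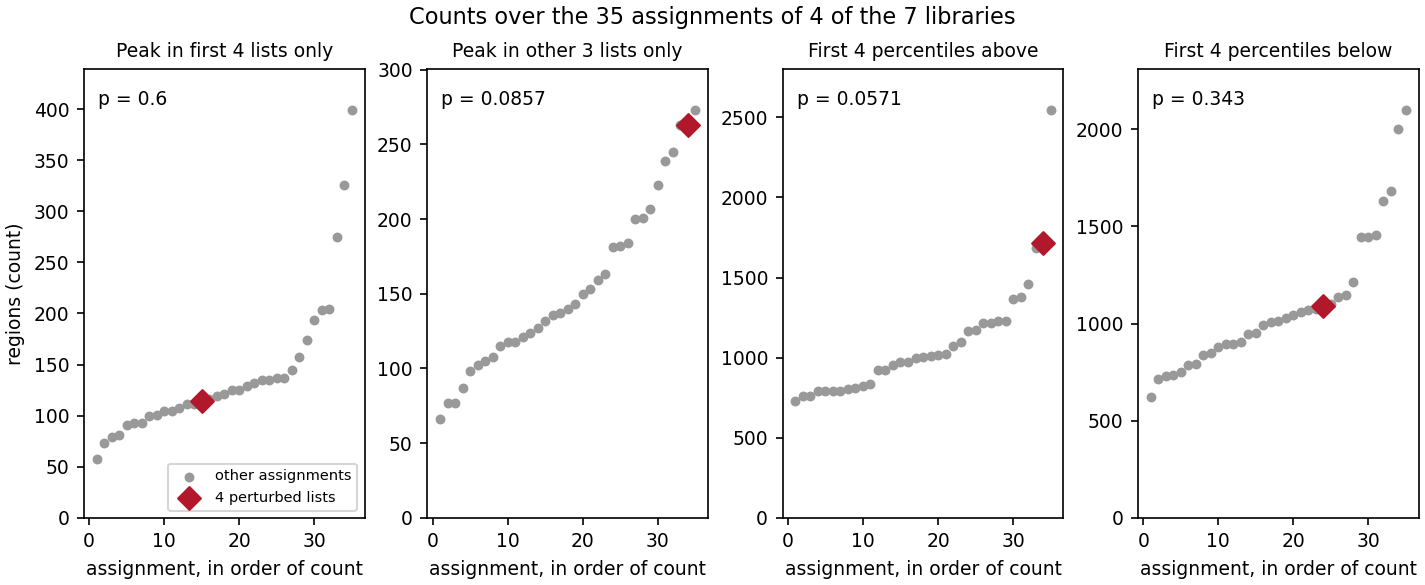
Number of regions (y axis, linear, from 0) for each of the 35 ways of assigning 4 of the 7 libraries to the first class, in order of count (x axis). The 4 PRC2-perturbed lists (red diamond) lie at 114, 263, 1713 and 1092 regions from left to right, and at least 1 other assignment gave more in every panel.

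Most gained regions had a weaker peak below the cut in an unperturbed list. Of the 114, 71, 83 and 74 had one in the complete shCtrl and DMSO lists, and 11 (9.65%) had none in any. Of the 263 lost regions, 114 (43.3%) had no peak in any complete perturbed list, and 59, 89 and 92 had one below the cut with the first shEZH2 library, GSK126 and shSUZ12. Gained regions were of middling strength, with median percentiles of 35.4 and 33.7 with shEZH2, 28.2 with GSK126 and 33.9 with shSUZ12. Lost regions had medians of 26.4, 26.7 and 23.1 with shCtrl and DMSO. Regions present in every list had medians of 64.1 to 65.5, so both sets lay in the weaker part of the lists.

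The strongest gained region lay in an intron of SMYD3, a histone and protein methyltransferase gene, at chr1:245788195-245788720. Its percentile was 86.5 and 50.2 with shEZH2, 46.3 with GSK126 and 54.0 with shSUZ12, and each unperturbed list had a peak there below the cut. A region in an intron of MCC, a gene that restrains cell cycle entry, was the most even of the 5 highest gained regions, at 44, 45.4, 44.6 and 46.5, with a peak below the cut in both shCtrl lists and none with DMSO. At chr2:53058550-53058934, far from any protein-coding gene, the percentiles were 90.4, 76.4, 53.0 and 41.7. The other regions of the 5 highest lay in an intron of ZNF516, a zinc finger transcription factor gene, at chr18:76477040-76477458 (41.7 to 56.4), and between genes at chr3:94184381-94185200 (39.9 to 81.9). In shE2F1 lists cut to the same length, neither had a peak in the SMYD3 and MCC regions, and at least 1 did in the others.

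Among lost regions the strongest lay in an intron of PARD3, which encodes a scaffold of cell polarity and tight junctions. Its percentile was 67.7 and 63.6 with shCtrl and 72.2 with DMSO, and no perturbed list, cut or complete, held a peak there. Neither shE2F1 list held one when cut to the same length, and the complete shE2F1 lists were not searched. It is the only one of the 5 highest lost regions without a peak below the cut in a perturbed list. The next, in an intron of a long noncoding RNA gene at chr16:74329348-74329704, stood at 61.6, 67.0 and 59.7 and carried a CTCF motif match, and GSK126 kept a peak below the cut. An intergenic region at chr1:65090267-65091075 stood at 71.5, 55.7 and 61.3. A region overlapping exon 4 of ABCC12, a transporter gene, at chr16:48143699-48144207, stood at 70.8, 67.3 and 53.1. One in an intron of KCNMA1, the gene of a calcium-activated potassium channel, at chr10:77376995-77377589, stood at 70.8, 77.0 and 49.5.

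Gained and lost regions were distal. Only 2.63% of gained regions (95% Wilson interval 0.899 to 7.45) and 3.80% of lost ones (2.08 to 6.86) overlapped a promoter, against 16.2% of all regions, with the interval for counting error only. Neither set can hold a region in every list, by definition. Those regions overlapped a promoter in 28.4%, which raises the share over all regions, so part of the contrast comes from the definition. Median distances to the nearest TSS were 69593 bp and 32581 bp, against 30055 bp over all regions. The sets differed from each other in base composition and motifs. Median GC content around the summit was 44.3% in gained and 50.7% in lost regions, and 51.2% in all. A TEAD match, the site of the transcription factors that act with YAP, was found in 33.3% of gained regions (25.3 to 42.4), 15.6% of lost ones (11.7 to 20.5) and 17.9% of all. AP-1 matches were found in 45.6%, 38.8% and 34.7%, E2F matches in 4.39%, 1.90% and 2.32%, and ETS matches in 0.877%, 0.38% and 3.65%. The ETS shares rest on 1 gained and 1 lost region. Regions in every list, which neither set can hold, had E2F matches in 3.04% and ETS matches in 6.25%. They raise the shares over all regions for both motifs. These shares are given as descriptions, with no test. With the shE2F1 lists cut to the same length, 50% and 55.3% of gained regions had a peak in the first and second shE2F1 library. Of lost regions 44.1% and 49.4% did, against 65.0% and 67.7% of all regions. Over regions in every list the shares were 94.7% and 96.9%.

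Most regions that set a perturbation apart were found with that perturbation alone. Of the regions absent from every unperturbed list, 2283 were found only with shSUZ12, 1441 only with GSK126 and 856 only with both shEZH2 libraries. Regions found with 2 of the perturbations and not the third numbered 383 for GSK126 and shSUZ12, 263 for shEZH2 and shSUZ12 and 182 for shEZH2 and GSK126. In the reverse direction, of regions present in all unperturbed lists, 1173 were missing only with shSUZ12, 916 only with both shEZH2 libraries and 717 only with GSK126. Missing from 2 perturbations were 399 for shEZH2 and shSUZ12, 275 for shEZH2 and GSK126 and 261 for GSK126 and shSUZ12. Single libraries held private regions on a like scale. The unperturbed lists had 1406 to 1536 regions found in no other list, the shEZH2 lists 2362 and 2888. Regions missing from 1 list alone numbered 592 and 527 for shCtrl, 598 for DMSO, and 1129 and 1982 for shEZH2. These stand beside the 717 of GSK126 and 1173 of shSUZ12, which are also counts of 1 library. A difference that only 1 library shows has no replicate check here.

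By their regions, the perturbed lists were less like each other than the unperturbed lists were. Shared regions made up 71.2% of the regions of a pair of perturbed lists on average (68.4% to 74%, 6 pairs), 77.3% of a pair of unperturbed lists (76.7% to 77.7%, 3 pairs) and 73.3% of a pair across classes (69.7% to 77.7%, 12 pairs). The pair of highest likeness was GSK126 with DMSO, at 77.7%, and the second shEZH2 list had the lowest mean likeness to the others, 70.1%. shSUZ12 shared 70.4% and 68.4% with the shEZH2 lists and 73.7% and 74.6% with the shCtrl lists. Likeness within classes did not exceed likeness across classes (difference −0.00133 as a fraction, exact permutation p = 0.457, adjusted p = 0.571).

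**Figure D2:**
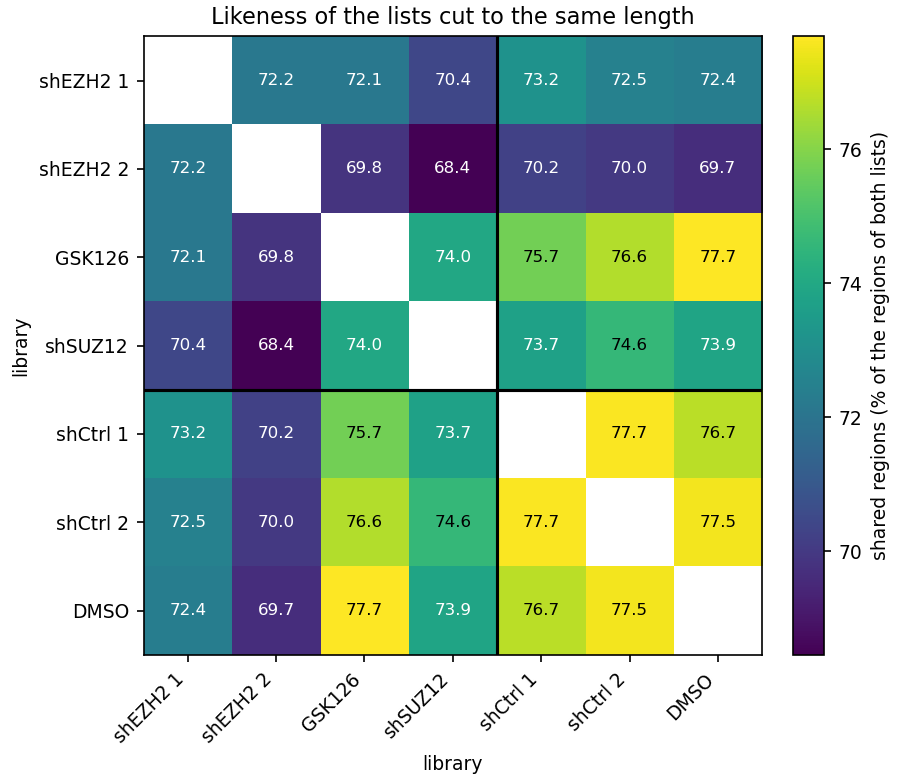
Regions shared by each pair of lists as a percentage of the regions of both (colour and numbers), with the 4 perturbed lists before the black lines. Values range from 68.4% for the second shEZH2 list with shSUZ12 to 77.7% for GSK126 with DMSO.

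Strength was compared in the 38038 regions with a peak in every list. In 1713 of them (4.5%) all 4 perturbed percentiles lay above all 3 unperturbed ones, and in 1092 (2.87%) all lay below. For regions above, 2 of the 35 assignments gave at least as many (exact permutation p = 0.0571, adjusted p = 0.214), the other being shEZH2 replicate 2, GSK126, shSUZ12 and DMSO with 2546. For regions below, 12 of 35 did (exact permutation p = 0.343, adjusted p = 0.571). With replicates kept together, the exact permutation p was 0.143 for regions above, the smallest possible, and 0.714 for regions below. Gaps between the classes were mostly narrow, with a median of 2.43 percentile points for regions above and 2.72 for regions below, and 121 and 115 regions had a gap over 10 points. When the lists were used as deposited the balance turned, to 702 above and 2620 below (exact permutation p = 0.0286 for regions below), and with the percentile of −log10 p it was 1117 above and 1284 below. The larger set thus lay above or below depending on how the lists were scaled.

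Within the shRNA libraries alone, 3 perturbed against 2 shCtrl, 667 regions were gained, 1247 lost, 5649 above and 3832 below. Of the 10 assignments, 4, 2, 1 and 5 gave at least as many (exact permutation p = 0.4, 0.2, 0.1 and 0.5), and 0.1 is the smallest p that 5 libraries allow. In the compound experiment, with 1 library each and no test, 7119 regions of 65254 had a peak with GSK126 and not with DMSO and 7718 the reverse.

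By the percentile of fold enrichment in lists of the same length, regions above leaned to promoters and regions below to distal sites. By the percentile of −log10 p, 233 promoters lay above and 370 below, so the lean is given for the first scaling only. Regions above were also wider, with a median of 1035 bp against 722.5 bp below and 856 bp in every list. The part of width in the promoter shares was not tested. Promoters made up 35.4% of regions above (33.1 to 37.7), 14.2% of regions below (12.2 to 16.4) and 28.4% of regions in every list. Median GC content was 57.2%, 52.7% and 55.7%. CTCF matches, the site of the insulator protein that anchors chromatin loops, were found in 1.23% of regions above (0.803 to 1.87), 6.78% of regions below (5.43 to 8.42) and 3.89% of regions in every list. AP-1 matches were found in 31.8%, 41.7% and 34.3%, and ETS matches, common at housekeeping promoters, in 7.36%, 4.76% and 6.25%. Single libraries also varied with base composition. Across the regions in every list, the deviation of a library from the mean of the 7 correlated with GC content at Spearman rho −0.161 and −0.0495 for shEZH2, 0.0830 for GSK126 and 0.178 for shSUZ12, and at −0.151, −0.0731 and 0.0986 for shCtrl and DMSO. Its part in the promoter and motif shares was not tested. By chromosome, regions above made up 2.72% to 5.33% and regions below 1.92% to 3.43% of the regions in every list, so no single chromosome held them.

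Among the widest gaps above were a region in an intron of the antisense gene FAM3D-AS1 at chr3:58630116-58630898 (46.9, 66.8, 64.6 and 54.8 against 21.4, 19.0 and 11.8), and an intergenic region at chr18:49690919-49691673 (49.0 to 70.3 against 16.5 to 26.6). The widest gap below was at chr3:56835647-56836589, between genes and nearest to ARHGEF3, which encodes a guanine nucleotide exchange factor, where the perturbed percentiles were 12.5, 36.3, 44 and 26.9 against 70.6, 79.6 and 70.9. A region in an intron of DNMT3B, a de novo DNA methyltransferase gene, at chr20:32789868-32790504, stood at 40.9, 37.5, 36.8 and 26.3 against 66.6, 76.3 and 72.0. One in an intron of CDC5L, a spliceosome and cell cycle gene, at chr6:44416081-44416514, stood at 22.1, 38.9, 34.1 and 40.4 against 72.5, 65.1 and 80.6. All of these regions also had a peak in both shE2F1 lists, and they are shown for the width of their gap, which chose them.

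Promoters were compared through their strongest peak in the cut lists. Of 20033 protein-coding promoters, 11735 had a peak in every list and 6729 in none. The 4 perturbed percentiles lay above all unperturbed ones at 699 promoters (5.96%) and below at 164 (1.4%), and the median difference over all promoters was 1.80 percentile points towards the perturbed lists. This split also turned with the scaling. It was 257 above and 411 below in the lists as deposited, where the median difference was −0.887, and 233 above and 370 below with the percentile of −log10 p in lists of the same length, with a median difference of −0.304. Of the 699, 159 were also above by −log10 p and 71 stayed above in all 7 alternatives, while of the 164 below, 110 and 73 did. Promoters without overlap are therefore given with the number of the 7 alternatives that kept their call. The counts of each gene list stand beside 5.96% above and 1.4% below of the 11735 promoters with a peak in every list. In these shares and in median differences, all promoters means those 11735.

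**Figure D3:**
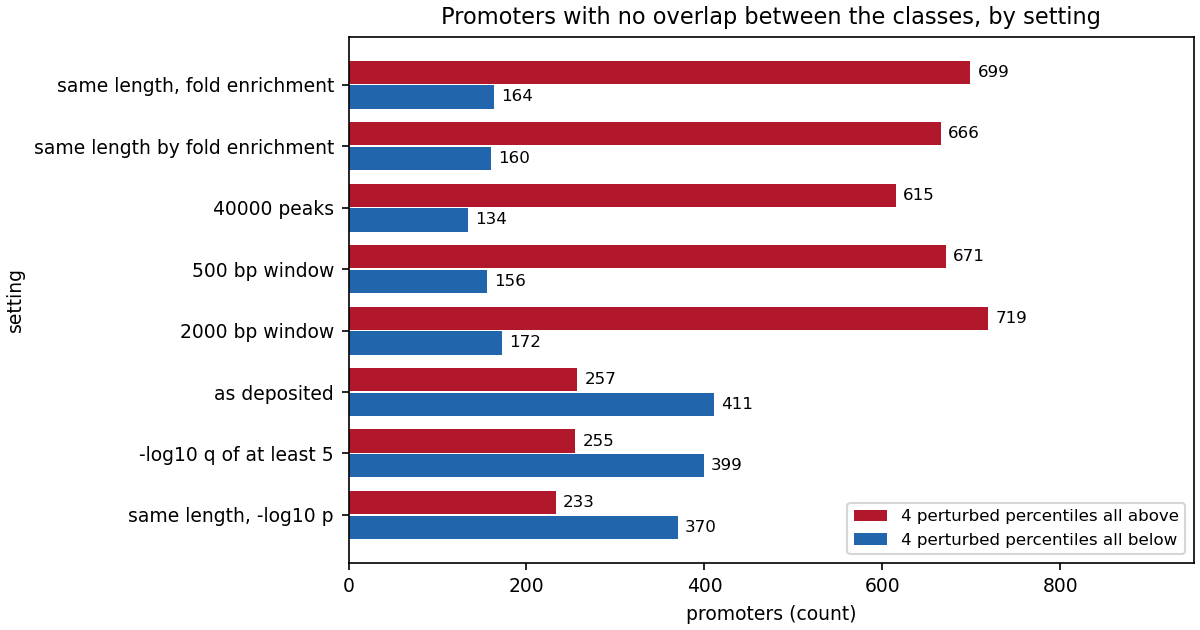
Number of promoters (x axis, linear, from 0) at which all 4 perturbed percentiles lay above (red) or below (blue) the 3 unperturbed ones, for each setting (y axis). With lists of the same length and fold enrichment 699 lay above and 164 below, whereas lists as deposited gave 257 and 411.

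The genes of PRC2 itself came first. All 6 core genes had an accessible promoter in every library. At EED, whose product binds H3K27me3 and stimulates the enzyme, percentiles were 72.5 and 74.5 with shEZH2, 65.5 with GSK126 and 79.9 with shSUZ12, against 56.4 and 52.9 with shCtrl and 51.7 with DMSO, a gap of 9.11 points. The classes did not overlap, and this held in all 7 alternatives. Summits of the strongest EED peaks lay up to 357 bp apart between lists. In the shE2F1 libraries EED stood at 54.5 and 60.6. The EZH2 promoter stood at 82.1, 88.9, 86.2 and 86.8 against 72.1, 81.3 and 77.0, and SUZ12 at 89.7, 86.5, 90.0 and 92.0 against 82.1, 86.0 and 82.5. Both gaps were under 1 point and were lost in the lists as deposited and with −log10 p, with 4 of the 7 alternatives keeping each call. In the shE2F1 libraries EZH2 stood at 87.2 and 84.5 and SUZ12 at 94.7 and 94.4, above every unperturbed value. The shifts at these promoters were thus not particular to the PRC2 perturbations. EZH1, the paralog of EZH2, RBBP4 and RBBP7 overlapped between the classes. A promoter peak does not measure the transcript, so these values do not check the knockdowns.

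Accessory subunits of PRC2 gave 0 of 7 promoters without overlap. Their median difference was 10.6 points, and the largest was at JARID2, a subunit that helps recruit the complex, with 55.2, 62.9, 47.9 and 51.2 against 44.6, 17.0 and 47.9. The subunits of PRC1, the complex that ubiquitinates histone H2A, gave 0 of 14, with a median difference of 0.29. Among the H3K27 demethylases and acetyltransferases, 1 of 4 (25%, beside 5.96%) lay above. This was KDM6A, whose product removes H3K27 methylation, at 77.0, 84.6, 88.7 and 85.1 against 63.8, 67.6 and 70.8, kept in all 7 alternatives. In the shE2F1 libraries KDM6A stood at 66 and 73.1. Of SWI/SNF remodelling subunits, which oppose PRC2 in development, 3 of 14 (21.4%, beside 5.96% of all promoters) lay above and 0 below. SMARCE1 stood at 62.7, 64.7, 52.0 and 61.9 against 51.6, 40.1 and 46.5, SMARCD1 at 75.7 to 89.6 against 74.6 to 75.6, and ARID1A at 11.7 to 28.5 against 7.0 to 9.8. SMARCD1 kept its call in 4 alternatives and the other two in 3 each, and none was kept in the lists as deposited or with −log10 p.

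For the 3 listed promoters with the same call in all 7 alternatives, EED, KDM6A and IRF9, the 250 bases before the start are shown from the RefSeq table of GRCh38.p14, on the plus strand. Capitals mark AP-1, TEAD or CTCF matches. Over all 35116 promoters of that table, the same window held an AP-1 match in 6.57%, a TEAD match in 11.9%, a CTCF match in 0.427%, an E2F match in 5.92% and an ETS match in 8.52%.

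EED, chr11:86244503-86244752: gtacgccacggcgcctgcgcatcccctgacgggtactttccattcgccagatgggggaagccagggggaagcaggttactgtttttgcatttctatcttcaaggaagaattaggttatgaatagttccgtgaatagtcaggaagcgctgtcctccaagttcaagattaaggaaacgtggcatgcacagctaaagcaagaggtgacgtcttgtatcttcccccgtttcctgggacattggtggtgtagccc
KDM6A, chrX:44872938-44873187: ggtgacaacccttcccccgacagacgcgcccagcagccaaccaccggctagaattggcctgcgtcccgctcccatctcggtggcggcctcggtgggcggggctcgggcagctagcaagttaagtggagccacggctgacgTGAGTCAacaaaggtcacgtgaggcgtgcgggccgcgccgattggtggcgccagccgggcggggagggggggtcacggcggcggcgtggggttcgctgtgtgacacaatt
IRF9, chr14:24161015-24161264: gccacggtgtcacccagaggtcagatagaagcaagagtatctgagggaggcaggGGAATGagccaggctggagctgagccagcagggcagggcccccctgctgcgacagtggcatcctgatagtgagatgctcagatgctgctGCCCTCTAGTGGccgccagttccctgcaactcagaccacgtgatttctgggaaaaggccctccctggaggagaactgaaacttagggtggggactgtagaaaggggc

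Classical PRC2 targets were mostly without a promoter peak in any of the cut lists, where peaks below the cut are not counted. Of 39 HOX genes, the body-plan genes that PRC2 silences in many cell types, 33 had none, and the same 6 promoters, of HOXA13, HOXB5, HOXB9, HOXC5, HOXD1 and HOXD4, had one in every list. Of all 20033 promoters, 6729 had none, and 58.6% had one in every list, beside 15.4% of the HOX genes. No HOX promoter gained a peak with a perturbation in these cut lists. HOXB5 lay below, at 29.4 and 27.7 with shEZH2, 25.3 with GSK126 and 35.3 with shSUZ12 against 65.7, 57.3 and 38.4, and kept this call in 5 of the 7 alternatives, not with −log10 p. Of 38 other developmental transcription factor genes, 27 had no promoter peak in any list. A peak in every list was found at 9 (23.7%, beside 58.6%), and none of the 9 was without overlap. GATA6, an endoderm factor, stood at 8.4 to 37.5 against 9.7 to 27.4. Peaks at 9 to 11 of the 38 promoters were found per list, with 11 in 5 of the 7 lists.

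Tumour suppressor and adhesion genes known as targets of EZH2 had no promoter without overlap. Of 15, 5 had no promoter peak and 7 had one in every list (46.7%, beside 58.6% of all 20033 promoters). The classes overlapped at all 7. FOSB stood at 11.2, 29.4, 15.9 and 13.7 against 10.8, 9.8 and 15.4, and the TIMP2 peak was missing only from the second shEZH2 list. CDH1, which encodes E-cadherin, had a weak promoter peak with the second shEZH2 library (16.6) and shSUZ12 (10.3) and in no other list. The luminal genes ESR1 and PGR, which encode the estrogen and progesterone receptors that this line lacks, had a peak among the 7 lists only with the second shEZH2 library, at 27.1 and 16.1, and PGR also in the first shE2F1 library at 19.2. That shEZH2 list is the one whose weakest retained peaks reached the lowest −log10 p. Markers of the basal-like, mesenchymal state had a peak in every list at 10 of 10 promoters. Luminal markers had one at 8 of 14 (57.1%), near the 58.6% of all 20033 promoters. Among these 8, TFF1 stood at 77.2 to 94.6 and XBP1 at 68.6 to 87.9 over the 7 lists.

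Cell cycle promoters were open throughout. Of 36 E2F target and cell cycle genes, 35 (97.2%, beside 58.6% of all 20033 promoters) had a peak in every list. Of these 35, 2 lay above and 1 below, shares of 5.71% and 2.86% beside 5.96% and 1.4% of all promoters. CDC20, the activator of the anaphase-promoting complex, stood at 87.9, 90.3, 81.9 and 81.8 against 70.6, 70.8 and 77.3, above in 6 of the 7 alternatives and not with −log10 p. CDC6, which licenses replication origins, stood at 71.5 to 85.0 against 61.5 to 70.8 and kept its call in 4. TK1, thymidine kinase, lay below at 89.7 to 92.5 against 94.4 to 96.2, in 6 of the 7 alternatives. The CCNB1 promoter, of cyclin B1, was near the top of every list, at 99.1, 97.2, 99.3 and 99.8 against 94.0, 97.6 and 98.0. RRM2, a subunit of ribonucleotide reductase, stood at 36.3, 41.5, 33.8 and 49.6 against 22.3, 23.7 and 41, and PLK1, a mitotic kinase, at 78.0, 82.6, 54.3 and 46.6 against 37.6, 42.3 and 64.1. E2F5 stood at 36.7 to 77.5 against 32.7 to 53.9, with summits of the strongest peaks up to 846 bp apart between lists. At these 4 promoters the classes overlapped.

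**Figure D4:**
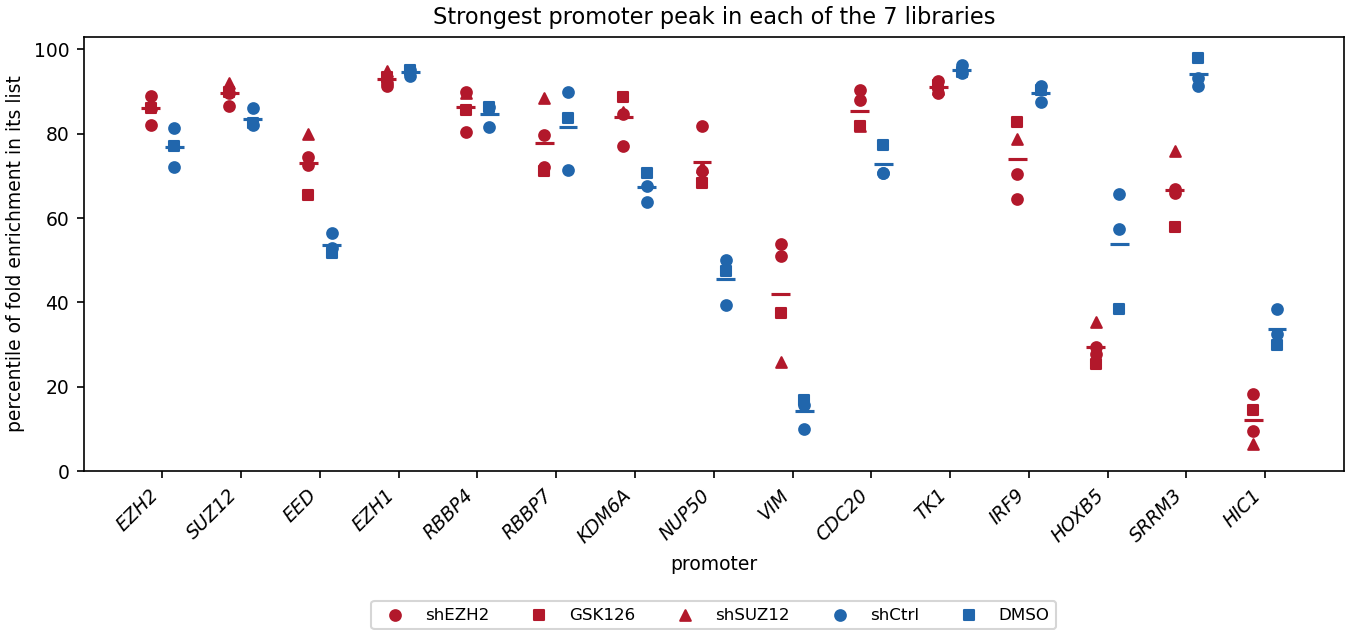
Percentile of fold enrichment of the strongest promoter peak (y axis) in each perturbed (red) and unperturbed (blue) library, with class means as bars, for 15 promoters (x axis). EED, KDM6A, NUP50 and VIM are separated upwards, IRF9, SRRM3 and HIC1 downwards, and EZH1, RBBP4 and RBBP7 overlap.

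Interferon and inflammatory promoters are given next. In the list of interferon response and antigen presentation genes 2 of 17 lay below (11.8%, beside 1.4% of all promoters). In the same list 1 of 17 lay above (5.88%, beside 5.96%). Its median difference was 5.51 points towards the perturbed lists, against 1.80 over all promoters, so the list as a whole did not lie below. IRF9, a component of the interferon-activated factor ISGF3, stood at 70.4, 64.4, 82.8 and 78.8 against 87.5, 91.3 and 90.3, below in all 7 alternatives. MX1, an antiviral GTPase, stood at 12.7, 29.4, 14.8 and 23.7 against 47.2, 38.7 and 31.7 and kept its call in 6. In the shE2F1 libraries IRF9 stood at 73.7 and 79.4, also below every unperturbed value. MX1 had a peak only in the second shE2F1 library, at 67.8. NFKBIA, the inhibitor of NF-κB, stood at 33.0 to 51.8 against 24.4 to 27.9 and the cytokine IL6 at 25.8 to 42.4 against 9.4 to 23.2, 2 of 12 genes in their list (16.7%, beside 5.96%). NFKBIA kept its call in 5 of the 7 alternatives and IL6 in 3. Their strongest peaks lay up to 824 and 820 bp apart between lists, so different peaks may have been compared. Of AP-1 genes, 1 of 9 (11.1%, beside 5.96%) lay above. This was FOSL2, at 25.6 to 37.3 against 5.3 to 24.0, and only the 2 other promoter windows of the 7 alternatives kept its call. Of cytoplasmic ribosomal protein genes 1 of 24 lay above (4.17%), RPL35, in 4 of the 7. Among mesenchymal markers 2 of 10 lay above (20%, beside 5.96%). VIM, which encodes vimentin, stood at 51.1, 53.8, 37.4 and 25.9 against 10.0, 15.7 and 16.8, kept in 6 of 7 alternatives, with 12.1 and 17.2 in the shE2F1 libraries and summits up to 684 bp apart. MSN, moesin, stood at 42.1 to 47.9 against 30.1 to 40, with summits up to 1075 bp apart, and kept its call in 4 of the 7, not in the lists as deposited, with a −log10 q of at least 5 or with −log10 p.

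The widest gaps upwards over all promoters were at NUP50, a nuclear pore gene (81.8, 71.2, 68.2 and 72.2 against 39.4, 50 and 47.5), and OSBPL6, a lipid transfer protein gene (81.5, 83.6, 81.8 and 82.0 against 53.4, 62.7 and 65.3). TOR4A and EGR2, the latter an immediate-early transcription factor gene, followed with gaps of 15.4 and 14.1 points, and all 4 kept their call in every alternative. APP, the amyloid precursor gene, MSANTD2, TRERF1 and DAPK1, a death-associated kinase gene, had gaps of 13.1 to 13.8, and kept it in 4 to 6 of the 7. Summits at DAPK1 lay up to 801 bp apart, so different peaks may have been compared. Downwards, the RPS6KA1 promoter stood at 18.9, 16.0, 15.0 and 3.0 against 72.5, 62.2 and 78.0, but its summits lay up to 1258 bp apart. Its call was kept in only 3 of the 7 alternatives, and was lost with windows of 500 and 2000 bp. With 40000 peaks per list or a cut by fold enrichment, RPS6KA1 no longer had a peak in all 7 lists. SRRM3, a neuronal splicing regulator gene, stood at 65.9, 66.8, 57.8 and 75.8 against 91.3, 93.1 and 98.0 with summits within 43 bp, in every alternative. UMPS, an enzyme of pyrimidine synthesis, stood at 50.6, 32.3, 53.7 and 66.9 against 82.9, 83.7 and 82.7. HIC1, a tumour suppressor gene often methylated in cancer, stood at 18.2, 9.6, 14.5 and 6.5 against 38.5, 32.4 and 29.8, and both it and UMPS kept their call in 6 of the 7. ZNF628, ASB13, KLHL23 and THSD8 completed the 8, with gaps of 11.5 to 12.5 points. ZNF628 and THSD8 kept their call in all 7 alternatives, and ASB13 and KLHL23 in 6. Summits at KLHL23 lay up to 538 bp apart. In the shE2F1 libraries NUP50 stood at 76.4 and 47.9, OSBPL6 at 77.2 and 75.6, TOR4A at 37 and 35.4 and EGR2 at 35.4 and 60.8. RPS6KA1 stood there at 42.3 and 5.3, SRRM3 at 75.8 and 78.8, UMPS at 80.5 and 67.5 and HIC1 at 4.1 and 8.5. Both shE2F1 values lay beyond every unperturbed one, on the perturbed side, at OSBPL6, EGR2, RPS6KA1, SRRM3, UMPS and HIC1, but not at NUP50 or TOR4A. All these genes were chosen by their gap, so no test applies to them.

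By presence, 3 promoters were gained, of POM121L2, OR9A4 and CLMN, and 9 lost. The olfactory receptor gene OR9A4 stood at 85.1, 78.4, 29.6 and 44 in the perturbed lists. Lost promoters included CA9, the hypoxia-induced carbonic anhydrase, at 14, 26.1 and 40 in the unperturbed lists, the nuclear receptor gene RORB at 26.1, 31.6 and 19.1, and CSRNP3, CDK15, CDHR4, PRR20G, CNTNAP1, SBK3 and CNBD2. CA9 and PRR20G had no promoter peak in either shE2F1 library, and the other lost promoters had one in at least 1 of them.

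The knockdowns and the compound have separate controls, so they can be compared without a shared library. Of 1853 regions with a DMSO peak that both shCtrl lists held and both shEZH2 lists lacked, 29.0% (95% Wilson interval 27 to 31.1) also lacked a GSK126 peak, against 2.43% (2.29 to 2.59) of the 40189 regions kept with shEZH2. Regions missing from a single shEZH2 list were between, at 18.0%. The groups differed in strength, and the median DMSO percentile was 28.3 for regions lost with shEZH2 and 63.6 for those kept. Within 4 equal ranges of the DMSO percentile the shares were 34.5% against 6.73% in the weakest, then 30.7% against 4.75%, 16.3% against 1.51% and 4.41% against 0.162%. The same held for shE2F1, in a comparison added after the data were seen. Of 1654 regions lost with shE2F1, 30.3% (28.1 to 32.5) lacked a GSK126 peak, and of 40090 kept, 2.46% did. Of regions lost with shEZH2 and kept with shE2F1, 19.7% (17.1 to 22.5) lacked it, and of regions lost with shE2F1 and kept with shEZH2, 20.8% (17.8 to 24.1), with overlapping intervals. The difference between these shares was not tested. In the gained direction, among regions without a DMSO peak, 20.9% (18.9 to 23.1) of the 1415 gained with shEZH2 had a GSK126 peak, below the 44.4% (42.9 to 45.9) of the 4107 in no shEZH2 or shCtrl list. The latter regions were defined by a peak with GSK126 or shSUZ12, since no other list could hold them, so that share is high by construction.

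**Figure D5:**
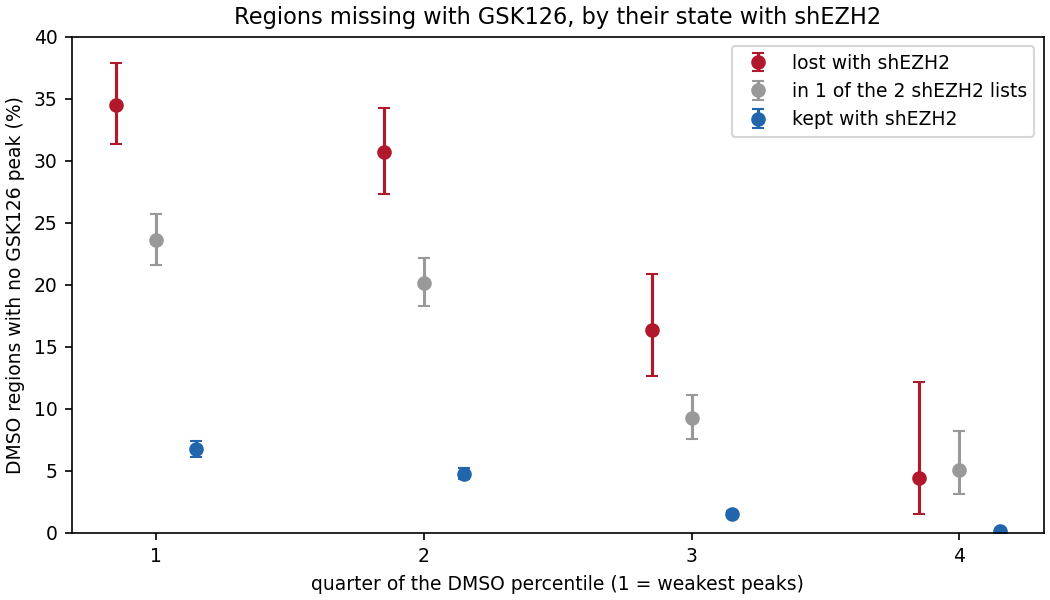
Share of regions with a DMSO peak that lacked a GSK126 peak (y axis, %), in 4 equal ranges of the DMSO percentile from weak to strong (x axis) and by state with shEZH2 (colours), with 95% Wilson intervals for counting error. The share falls from 34.5% to 4.41% for regions lost with shEZH2 and from 6.73% to 0.162% for those kept.

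Percentile differences between such comparisons correlated weakly across 35243 regions with a peak in all 9 lists, where regions are not independent and share libraries' depth and base composition. With a separate shCtrl library for each, shEZH2 and shSUZ12 gave Spearman rho 0.133, or 0.0711 with the shCtrl libraries exchanged, and shE2F1 and shSUZ12 gave 0.0541 or 0.0227. Between shEZH2 and shE2F1 it was 0.0956 or 0.0647, so a correlation of this size was not particular to the PRC2 perturbations. For GSK126 against DMSO, rho was 0.0593 with shEZH2, 0.0631 with shSUZ12 and −0.00146 with shE2F1. The 2 shEZH2 libraries gave 0.191 or 0.172 with each other, and the 2 shE2F1 libraries 0.183 or 0.122. Even replicates of 1 hairpin thus shared little of their ranking of differences.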

How the data were processed

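ATAC-seq peak lists of 7 MDA-MB-231 libraries were compared, grouped by the deposited labels. Per the study's methods, the authors aligned reads with Bowtie2 and shifted them for Tn5 binding. The ATAC-seq peak caller is not given in the sources used here. The submitters' processing notes name hg38. In the deposited lists, column 7 is a fold enrichment (ratio of summit to local background) and columns 8 and 9 are the −log10 of p and q. The lists hold called peaks only, without reads, so a weak region below the caller's threshold is missing, and depth was read from fold enrichment and p at the summits.

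The 7 lists were cut to the length of the shortest by column 8 and merged at an overlap of 1 bp. The shE2F1 lists were cut to the same length to find their peaks in these regions. Fold enrichment was turned into a percentile within each list. A promoter was taken as 1000 bp on either side of the canonical TSS of 20033 protein-coding genes (GENCODE v44). Counts and list likeness were set beside all 35 assignments of 4 of 7 libraries (two-sided exact permutation test for list properties, one-sided for counts of regions and likeness), with Benjamini-Hochberg adjustment over the 5 counts and likeness values and, separately, the 5 list properties. When replicates were kept together, 7 assignments remained, and the smallest possible p was 0.143. Wilson intervals (95%) cover counting error only. Motifs were sought on both strands within 100 bp of the summit.

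Named regions were the highest ranked by their lowest percentile (presence) or by the gap between the classes (strength). Named promoters were the 8 of widest gap in each direction, those of fixed gene lists without overlap, the PRC2 core genes and a few cell cycle genes. A few items that these rules name are not reported here. Members and gene lists were chosen with earlier results of these data known. Alternatives were lists as deposited, 40000 peaks per list, a cut by fold enrichment, a −log10 q of at least 5, the percentile of −log10 p, promoter windows of 500 and 2000 bp, the shRNA libraries alone and leaving out each library. Scripts were tested on simulated data. Python 3.11.15, numpy 2.4.6, pandas 2.3.3, scipy 1.17.1, pysam 0.24.0 and matplotlib 3.10.9 were used.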

Additional observations from a re-analysis of the deposited data

How the results depend on the processing

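In lists as deposited, 38 regions were gained, 846 lost, 702 above and 2620 below, with an exact permutation p of 0.0286 for lost and below, and 257 promoters lay above and 411 below. With a −log10 q of at least 5 the counts were 35, 766, 699 and 2466, again with an exact permutation p of 0.0286 for lost and below, and 255 and 399 promoters. These lists differ in length between the classes. The p-values of the alternatives are unadjusted and treat replicates as separate libraries. With 40000 peaks per list, 147 regions were lost and 638 below. Cutting by fold enrichment gave an exact permutation p of 0.0286 for lost regions. With the percentile of −log10 p, 1117 regions lay above, and 233 promoters above and 370 below. In the shRNA libraries alone the counts were 667, 1247, 5649 and 3832. Leaving out 1 library gave 203 to 378 gained, 369 to 663 lost, 2506 to 4100 above and 1854 to 2399 below, with 895 to 1928 promoters above and 241 to 471 below. These counts are larger because fewer lists must agree. Apart from this construction and that of shorter lists, the cause was not tested. Alternatives for likeness, list properties and the calls of single promoters, and the comparison of shE2F1 with GSK126, were chosen after seeing the data. No paired analysis was possible because shSUZ12, GSK126 and DMSO carry no replicate number shared across the classes, and the results are counts over all 7 libraries. Depth limits the second shEZH2 and GSK126 libraries most, which had the fewest background tags.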
